A study of Mus musculus with 8 samples.

Results

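The dystrophin glycoprotein complex and dysferlin were followed through 9 genes, matched by symbol in the deposited expression table: Dmd, Utrn, Dag1, Sgca, Sgcb, Sgcd, Sgce, Dtna and Dysf. All 9 were found among its 18877 symbols. RNA came from activated muscle stem cells (ASCs), the cells of the Pax7 lineage that enter the cell cycle when muscle is damaged. In both groups the mice carried a mito-Dendra2 reporter under the Pax7-Cre(ERT2) driver and were given tamoxifen at 75 mg/kg on each of 5 days, after which BaCl2 was injected into the tibialis anterior muscle. Cells that were CD34-, Dendra2+ and DAPI- were sorted 2 days later from 4 wild-type and 4 mfn2-/- samples, the latter with the mitochondrial fusion gene Mfn2 deleted through the same driver. The labels give no age, sex or strain and do not say whether samples of a group came from separate animals. P-values therefore measure only the spread between these samples, part of which may be technical. Each group held libraries with and without reads from Y-linked genes, so its samples were not all repeats of a single animal. Cre acts in cells that express Pax7, so both the reporter and the deletion were set in that lineage, and other cells of the muscle kept Mfn2.

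Dystrophin ties the actin cytoskeleton to dystroglycan, a receptor in the cell membrane whose sugar chains bind laminin outside the cell. Sarcoglycans steady that link within the membrane, dystrobrevins and syntrophins build a signalling scaffold on its inner face, and utrophin is an autosomal relative that can take the place of dystrophin. Dysferlin is a calcium-binding protein that helps to reseal torn muscle membranes. Loss of several of these genes causes muscular dystrophy, and in activated stem cells dystrophin is also known to take part in polarity before asymmetric division.

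Dmd is read from several promoters, and a value per gene does not separate the full-length transcripts from short ones such as Dp71, which lack the actin-binding start of the protein. The 250 bases before each of 2 RefSeq starts of Dmd are shown because they are the ends of one gene that this measurement adds together, and the 250 bases before the outer start of Dag1 because Dag1 was the member whose genotype change differed by test between kinds of library. Capitals mark CANNTG (an E-box, the class of motif that MyoD binds) and GGGCGG or its complement CCGCCC (a GC box), and all sequences are from GRCm38.p6, read 5′ to 3′ on the strand of the gene.
Dmd, outer start, chrX:82948620-82948869, plus strand: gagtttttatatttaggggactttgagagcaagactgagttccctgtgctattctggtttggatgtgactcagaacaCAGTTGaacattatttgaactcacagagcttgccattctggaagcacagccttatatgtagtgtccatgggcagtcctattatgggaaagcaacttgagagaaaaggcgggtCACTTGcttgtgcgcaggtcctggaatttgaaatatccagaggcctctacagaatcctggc
Dmd, inner start, chrX:85048045-85048294, plus strand: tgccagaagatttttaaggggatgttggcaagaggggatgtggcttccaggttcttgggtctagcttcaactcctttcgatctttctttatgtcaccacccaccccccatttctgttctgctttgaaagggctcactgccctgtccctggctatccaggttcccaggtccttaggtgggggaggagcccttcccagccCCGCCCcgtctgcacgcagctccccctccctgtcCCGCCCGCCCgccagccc
Dag1, outer start, chr9:108263959-108264208, minus strand: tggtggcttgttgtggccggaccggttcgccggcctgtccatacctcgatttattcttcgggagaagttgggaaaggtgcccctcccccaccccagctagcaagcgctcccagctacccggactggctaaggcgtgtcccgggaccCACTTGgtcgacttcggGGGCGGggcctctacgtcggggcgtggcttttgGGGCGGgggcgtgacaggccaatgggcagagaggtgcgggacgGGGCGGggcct

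The windows of Dmd lie 2099425 bases apart and have different composition. The outer one held 2 CANNTG, 0 GC boxes and 2 CpG, with 45.2% G and C, while the inner one, near which Dp71 transcripts begin, held 0 CANNTG, 3 GC boxes and 7 CpG, with 60.0% G and C. The Dag1 window held 1 CANNTG, 3 GC boxes and 21 CpG, with 67.6% G and C, and the other RefSeq start of Dag1 lay 143 bases inside the gene. Over 32851 windows of this length, 66.2% held a CANNTG and 32.7% a GC box on either strand, and the median was 6 CpG. These matches describe letters in a window and not bound sites.

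Mfn2, the targeted gene, gave 243, 245, 202 and 228 normalized reads in wild-type replicates 1 to 4 and 104, 118, 172 and 110.0 in mfn2-/- replicates 1 to 4. Every mfn2-/- library was below every wild-type library. Limma put its log2 change at -0.88 (SE 0.30), with an adjusted p of 0.0848 over all genes. Of 22 alternative settings, the only one to call Mfn2 was limma with library weights (adjusted p = 0.0099), under which 25.8% of all genes passed. The edgeR adjusted p was 0.162 and the DESeq2 one 0.058. Gene totals also count reads outside the deleted exons, and the part of such reads was not tested. Libraries held 1880464 to 7508215 reads, fewest in wild-type replicate 1 and mfn2-/- replicate 4 (2269009), and 1 read was worth 0.534 to 2.27 normalized reads. Y-linked reads numbered 807 to 2336 in 4 libraries (replicates 3 and 4 of wild-type, 1 and 2 of mfn2-/-) and 0 in the other 4, so each group had 2 libraries of each kind. An effect of sex cannot be told apart from any other difference between these pairs of libraries within a group. The stem cell markers Pax7 and Myf5 were present in every library, at 582 to 803 and 176 to 258 normalized reads. Markers of fibroadipogenic cells moved with genotype. Of 17, 15 were lower in mfn2-/- ASCs and 0 higher (limma), with a summed level of 188474 to 255095 in wild-type and 2118 to 4284 in mfn2-/- libraries. All 10 tenocyte markers were lower (summed 40809 to 65595 against 306 to 435), while 3 of 15 mature myofiber markers (2645 to 4918 against 4988 to 6320) and 2 of 9 stem cell markers were higher, Myod1 (104 to 225 against 683 to 918) and Sdc4 (2908 to 5871 against 14829 to 23212). The other 7 stem cell markers, Pax7, Myf5 and Myog among them, did not pass, and the summed level of all 9 (5835 to 8236 against 18044 to 26480) had Sdc4 as its largest part. Among markers of other cells, calls were 1 higher and 2 lower of 8 for mural cells and 1 lower of 6 for glia. Endothelium had 0 of 10 and macrophages 0 of 4, and limma called 10.4% of all genes. No fibroadipogenic or tenocyte marker was at 0 in every library of a group. Some were nearly so in mfn2-/- replicates 1 to 4, such as Chad (0, 0.79, 0 and 0) and Mfap4 (0, 1.58, 0 and 0). Others were not, such as Fbn1 at 749 to 1074. Their part in the results below was not tested, and in bulk RNA fewer cells of a type and less RNA per cell cannot be told apart.

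Across the 9 members, none passed the adjusted threshold of 0.05 with limma, while 10.4% of the 11754 genes tested did, 3.99% higher and 6.36% lower in mfn2-/- ASCs. All 9 passed the filter on weak expression, a mean of at least 10 normalized reads. An unadjusted p under 0.05 was found for 3 members (Dag1, Sgcd and Sgce, all with negative changes), against 24.8% of all genes. The read-count tests called 0 members with edgeR (9.85% of all genes) and 1 with DESeq2 (Dag1, 14.9% of all genes). Limma with library weights called 2, Dag1 and Sgcd, with 25.8% of all genes, and called 0 members without its intensity trend (5.39% of all genes) or with the presence of Y-linked reads as a term (12.4%). In 2 members, Dmd and Sgce, the mfn2-/- libraries all lay below the wild-type libraries, and this was so for 12.2% of all genes. The groups failed to overlap in either direction in 19.5%. The median log2 change of the members was -0.35, with 4 positive and 5 negative, beside -0.16 over all genes. Upper-quartile scaling moved that background to 0.04 and quantile normalization to 0.13, and upper-quartile scaling turned the split of all calls from 469 higher and 748 lower to 844 higher and 632 lower.

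**Figure D1:**
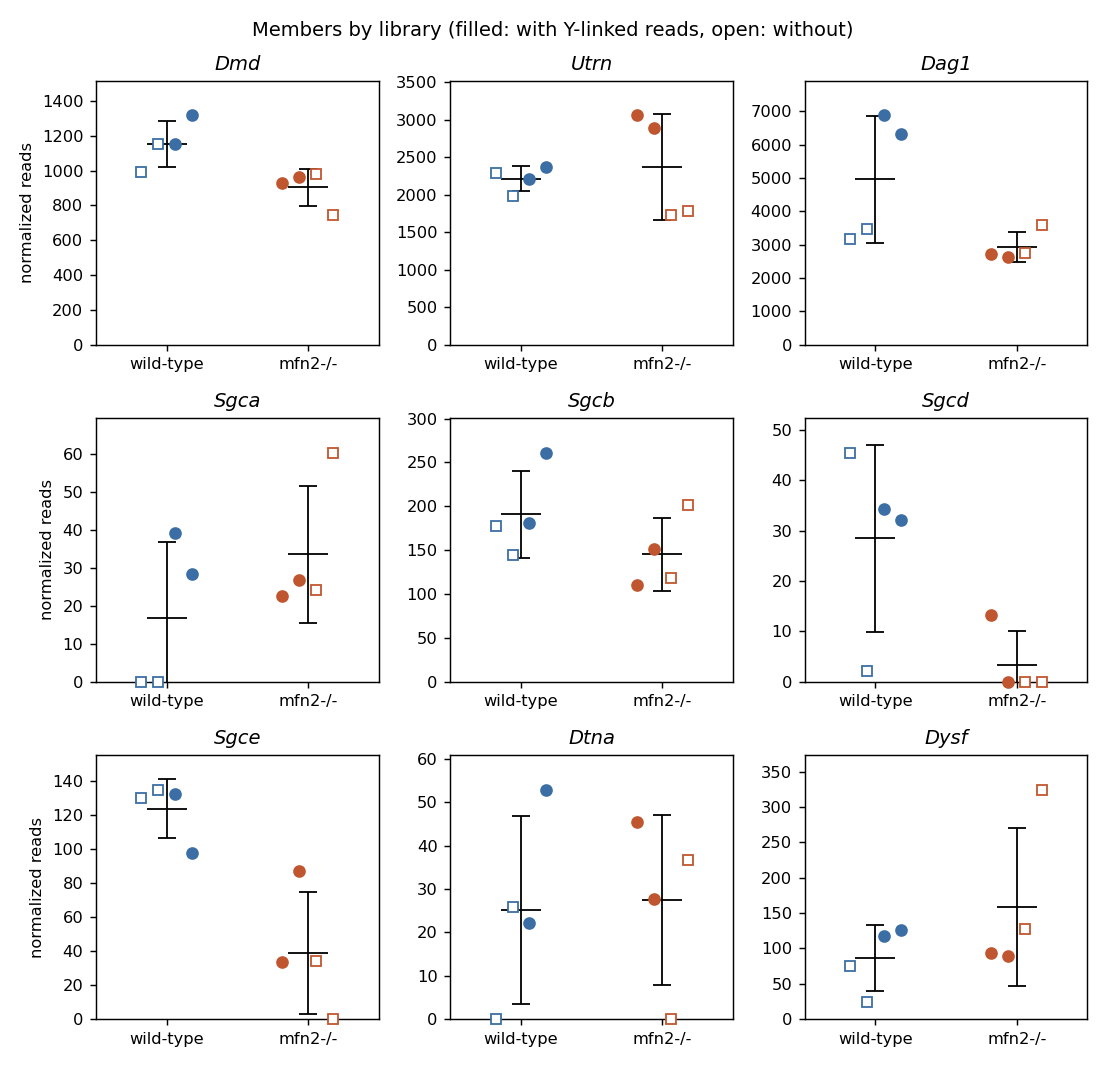
Normalized read counts of each of the 9 members in the 4 wild-type and 4 mfn2-/- libraries, 1 panel per gene with its own linear axis from 0, with filled points for libraries with Y-linked reads, open squares for those without, and the group mean ± SD (bars cut at 0). The groups are apart only for Dmd and Sgce, and wild-type replicates 3 and 4 stand high for Dag1 at 6876 and 6327.

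Dmd (GENCODE M21 annotation of GRCm38, chromosome X, 82948870 to 85206141, plus strand), the cytoskeletal linker of the complex, stood at 992, 1152, 1156 and 1318 normalized reads in wild-type replicates 1 to 4, and at 928, 963, 981 and 746 in mfn2-/- replicates 1 to 4 (the order kept for each gene below). The highest mfn2-/- value was just under the lowest wild-type value. Group means were 1154 ± 133 and 904 ± 108 (SD, n = 4 each), and the log2 change was -0.35 (SE 0.18, 95% confidence interval -0.74 to 0.04). The limma adjusted p over all genes was 0.249. A two-sided exact permutation test over the 70 arrangements gave p = 0.0286, which is the smallest that 4 against 4 libraries can give. Relative to the median of all genes the change was -0.19. Dmd is X-linked, and its change was -0.38 among libraries with Y-linked reads and -0.32 among those without, with no call for a difference (limma interaction adjusted p = 0.943).

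Utrn (chromosome 10, 12382188 to 12869365, minus strand), the autosomal relative of Dmd, gave 2295, 1989, 2212 and 2367 normalized reads across the wild-type libraries and 3059.7, 2898, 1734 and 1789 across the mfn2-/- ones. Both mfn2-/- libraries with Y-linked reads lay above the wild-type range and the other two below it. The means, 2216 ± 164 and 2370.0 ± 706 (SD, n = 4 each), gave a log2 change of 0.05 (SE 0.22, 95% confidence interval -0.41 to 0.51, limma adjusted p = 0.907), which was -0.083 under quantile normalization. The change was 0.38 with and -0.28 without Y-linked reads, and their difference of 0.66 (SE 0.19) did not pass (limma interaction adjusted p = 0.183). The ratio of Utrn to Dmd, each per kilobase of its longest protein-coding transcript, ran from 2.08 to 2.79 in wild-type and from 2.13 to 3.97 in mfn2-/- libraries, so the ranges overlapped. These ratios are too high if short Dmd transcripts gave part of its reads, which was not tested.

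Dag1 (chromosome 9, 108204634 to 108263958, minus strand) encodes both dystroglycan subunits, the laminin receptor and its membrane anchor. Wild-type libraries gave 3163, 3463, 6876 and 6327 normalized reads, and mfn2-/- libraries gave 2728, 2641, 2750.1 and 3583. Wild-type replicates 3 and 4 stood apart from the remaining 6 libraries, and mfn2-/- replicate 4 lay above wild-type replicates 1 and 2. The wild-type mean was 1.69 times the mfn2-/- mean (4957 ± 1915 against 2926 ± 441, SD, n = 4 each). The log2 change of -0.69 (SE 0.26, 95% confidence interval -1.24 to -0.13) was short of the threshold with limma (adjusted p = 0.115) and with edgeR (0.123), and past it with DESeq2 (0.0347), with limma library weights (-1.12, adjusted p = 8.19e-05) and with limma on the 6 libraries left without the 2 shallowest (-0.98, 0.0375). Both shallowest libraries were without Y-linked reads, so most of the 6 left had them. On those 6, limma called 1567 of the 11754 genes tested. An exact permutation test on all libraries gave p = 0.0857.

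The Dag1 change differed between the kinds of library. With Y-linked reads the means were 6601 in wild-type and 2685 in mfn2-/- libraries, a log2 change of -1.30, and without them 3313 and 3166, a change of -0.08. The difference of the changes was -1.22 (SE 0.21, limma interaction adjusted p = 0.0190), and 1.47% of all genes passed this test. Read-count tests gave -1.15 with edgeR (adjusted p = 0.0213) and -1.23 with DESeq2 (adjusted p = 5.22e-08). The limma call was lost without the intensity trend (adjusted p = 0.441), and when any one of wild-type replicates 1 to 4 or mfn2-/- replicates 1 and 2 was left out (0.0610 to 0.159). It was kept without mfn2-/- replicate 3 (0.00533) or 4 (0.0403). Each cell of this comparison holds 2 libraries.

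**Figure D2:**
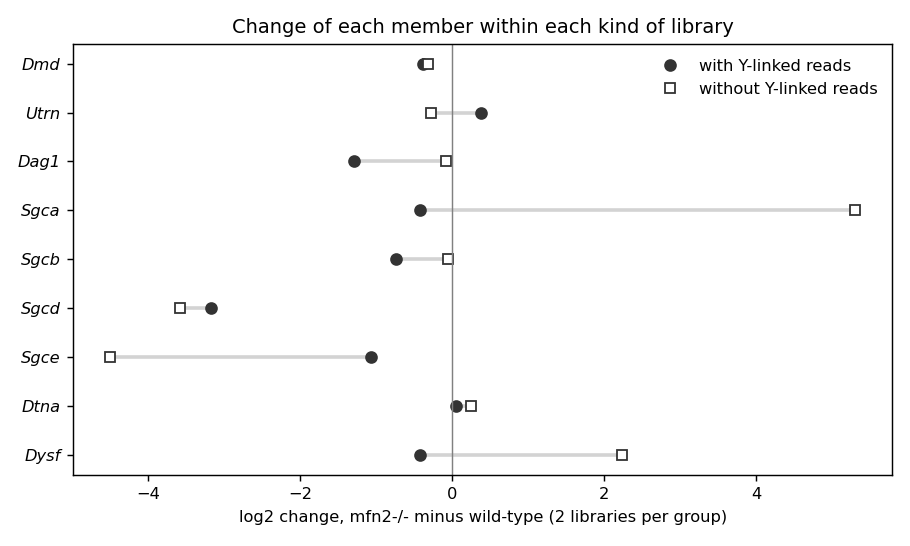
Log2 change (mfn2-/- minus wild-type, on log2 of normalized reads + 1) of each member among the 4 libraries with Y-linked reads and among the 4 without, 2 per genotype in each. Dag1 changed by -1.30 in the first kind and -0.08 in the second, and Dmd by -0.38 and -0.32.

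The sarcoglycans are single-pass proteins that sit beside dystroglycan. Sgce (chromosome 6, 4674350 to 4747207, minus strand), epsilon-sarcoglycan, which is also made outside striated muscle, gave 129.6, 135, 132 and 97.8 normalized reads across the wild-type libraries and 33.3, 86.9, 33.9 and 0 across the mfn2-/- ones. All mfn2-/- libraries were below the wild-type range, and mfn2-/- replicate 4 had 0 reads, which allows up to 3 reads or 5.50 normalized reads. The wild-type mean was 3.21 times the mfn2-/- mean (124 ± 17.4 against 38.5 ± 35.9, SD, n = 4 each). The log2 change of -2.78 (SE 1.13) had a limma adjusted p of 0.145 and an exact permutation p of 0.0286, and it was -1.39 when mfn2-/- replicate 4 was left out. The change was -1.06 with and -4.49 without Y-linked reads (limma interaction adjusted p = 0.539).

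Sgcd (chromosome 11, 46896253 to 47988969, minus strand), delta-sarcoglycan, a core of the sarcoglycan subcomplex, gave 45.5, 2.07, 34.3 and 32.1 normalized reads across the wild-type libraries and 13.3, 0, 0 and 0 across the mfn2-/- ones. It rested on few reads, 20, 2, 42 and 60 in wild-type and 20, 0, 0 and 0 in mfn2-/- libraries, where a count of 0 allows up to 3 reads or 2.21 to 5.50 normalized reads. The ranges overlapped through wild-type replicate 2. Its log2 change was -3.38 (SE 1.36), with a limma adjusted p of 0.142, an exact permutation p of 0.0571, and changes of -3.17 and -3.58 in the kinds with and without Y-linked reads. Limma with library weights called it (-3.82, adjusted p = 0.0118), and no other setting did.

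Sgcb (chromosome 5, 73632749 to 73647790, minus strand), beta-sarcoglycan, the other core subunit, gave 177, 144, 181 and 261 normalized reads across the wild-type libraries and 111, 152, 118 and 202 across the mfn2-/- ones. The groups overlapped over most of their range. Means were 191 ± 49.7 and 145 ± 41.5 (SD, n = 4 each), with a log2 change of -0.40 (SE 0.34, 95% confidence interval -1.12 to 0.33, limma adjusted p = 0.499).

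Sgca (chromosome 11, 94962791 to 94976327, minus strand), alpha-sarcoglycan, the subunit limited to striated muscle, gave 0, 0, 39.2 and 28.3 normalized reads across the wild-type libraries and 22.7, 26.9, 24.3 and 60.5 across the mfn2-/- ones. Wild-type replicates 1 and 2 had 0 reads, which allows up to 6.82 and 3.11 normalized reads, and the other 6 libraries had 33 to 53 reads. The log2 change of 2.44 (SE 1.39, limma adjusted p = 0.305) rests on those libraries at 0, and it was -0.42 with and 5.30 without Y-linked reads.

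Dtna (chromosome 18, 23415135 to 23659715, plus strand), alpha-dystrobrevin of the inner scaffold, gave 0, 25.9, 22.1 and 52.9 normalized reads across the wild-type libraries and 45.3, 27.7, 0 and 36.6 across the mfn2-/- ones. One library of each group had 0 reads, and the groups covered the same range. Its log2 change was 0.14 (SE 1.55, 95% confidence interval -3.21 to 3.50, limma adjusted p = 0.965). An antisense transcript, Gm47898, overlaps its exons, and the strand setting of the read counting is not given in the sources used here.

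Dysf (chromosome 6, 84008590 to 84211060, plus strand), dysferlin, gave 75.0, 23.9, 118 and 126 normalized reads across the wild-type libraries and 93.3, 88.5, 127 and 324 across the mfn2-/- ones. Replicate 4, the shallowest mfn2-/- library, stood far above the rest, and the other mfn2-/- libraries lay among or just above the wild-type values. Means were 85.6 ± 46.9 and 158 ± 112 (SD, n = 4 each). The log2 change of 0.91 (SE 0.60, 95% confidence interval -0.39 to 2.20, limma adjusted p = 0.386) was -0.030 with library weights, and was -0.42 with and 2.23 without Y-linked reads (limma interaction adjusted p = 0.310). Antisense genes Gm15475 and Gm33024 overlap Dysf exons.

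**Figure D3:**
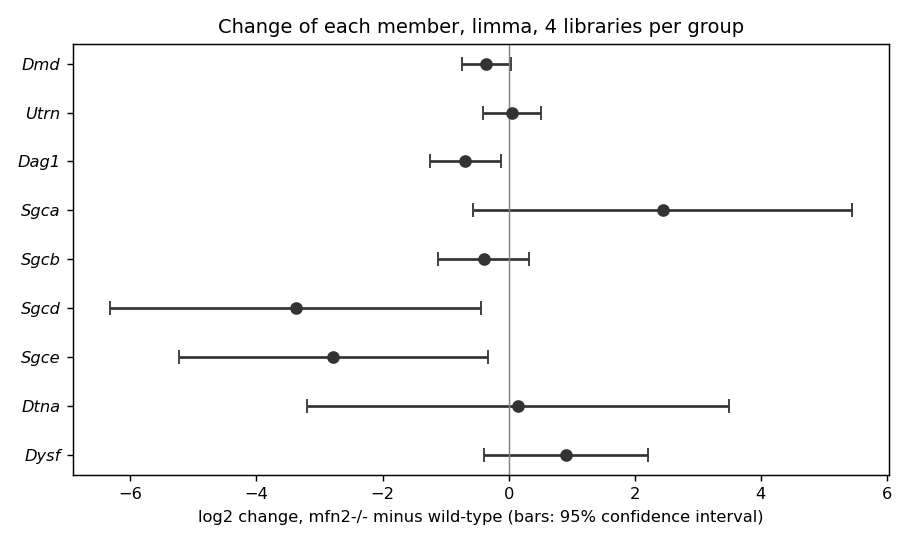
Log2 change (mfn2-/- minus wild-type, on log2 of normalized reads + 1) of the 9 members with 95% confidence intervals from limma, n = 4 libraries per group, and a vertical line at 0. The intervals of Dag1, Sgcd and Sgce lie below 0 and those of the other 6 members include 0.

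Levels of different members can be set beside each other only per length. Per kilobase of the longest protein-coding transcript, Dag1 was the most abundant in wild-type ASCs at 876 ± 338 normalized reads (SD, n = 4), followed by Utrn at 179 ± 13.2, Dmd at 77.4 ± 8.94, Sgce at 69.6 ± 9.78 and Sgcb at 50.5 ± 13.1. Dysf at 12.6 ± 6.89, Sgcd at 11.6 ± 7.57, Sgca at 9.79 ± 11.6 and Dtna at 4.01 ± 3.45 followed. The value of Dmd is too low if short transcripts such as Dp71 gave part of its reads, which was not tested. Its place in the order is therefore not settled in either group. Among neighbours in that order, the wild-type ranges were apart for Dag1 (559 to 1214) and Utrn (161 to 191), for Utrn and Dmd (66.5 to 88.4), and for Sgcb (38.1 to 69.0) and Dysf (3.51 to 18.5). Dmd and Sgce overlapped, as did Sgce and Sgcb and all of the 4 lowest. In mfn2-/- ASCs the per-kilobase order began with Dag1 at 517 ± 77.8, Utrn at 191 ± 57.1 and Dmd at 60.7 ± 7.24, with Sgcb at 38.4 ± 10.95 ahead of Dysf at 23.3 ± 16.5 and Sgce at 21.7 ± 20.2. Dag1, Utrn and Dmd made up 93.8 to 95.2% of the summed normalized reads of the 9 members in wild-type and 90.8 to 95.5% in mfn2-/- libraries. The 9 together were 0.161 to 0.266% of all normalized reads in wild-type and 0.155 to 0.170% in mfn2-/- libraries.

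Around the members, 89 further genes were listed by role in 5 lists, of which 83 were in the table and 71 passed the filter on weak expression. Limma called 12 of the 71, 3 higher and 9 lower, or 16.9% beside 10.4% of all genes, and their median log2 change was -0.17. The read-count tests called 10 with edgeR, which called 9.85% of all genes, and 18 with DESeq2, which called 14.9%. The lists were chosen with earlier results of these data known. Of the 9 lower genes, 6 were ligands of dystroglycan.

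**Figure D4:**
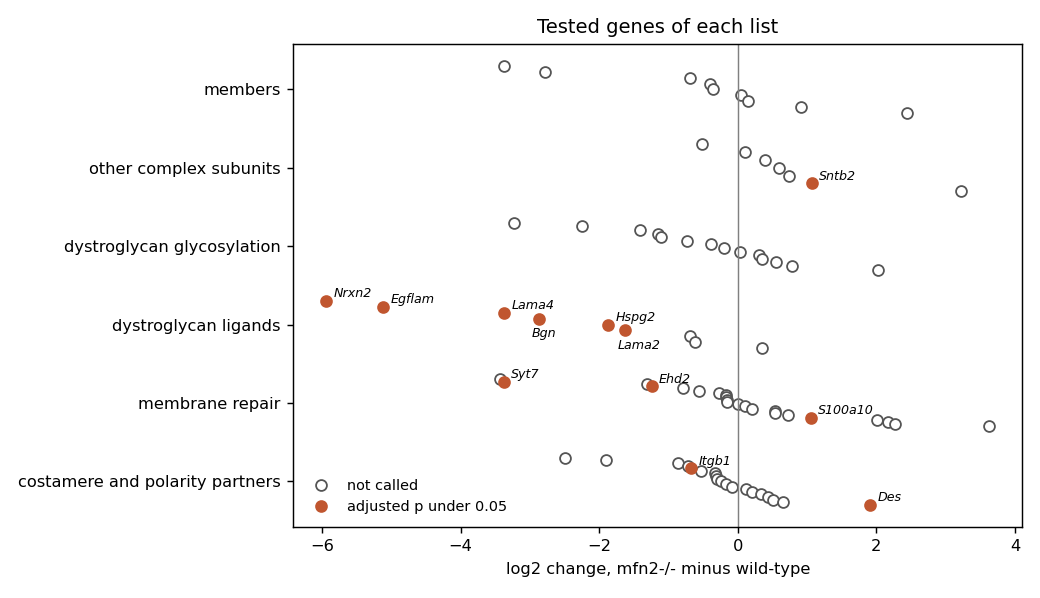
Log2 change (mfn2-/- minus wild-type, on log2 of normalized reads + 1) of every tested gene of the 9 members and of the 5 lists around them, 1 point per gene, filled where the limma adjusted p was under 0.05. Medians run from -1.87 for the dystroglycan ligands to 0.60 for the other complex subunits.

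Of the other subunits of the complex, 1 of 7 tested was higher in mfn2-/- ASCs, 0 were lower and 6 did not pass, with a median of 0.60 and 6 positive changes. The share called was 14.3%, beside 10.4% of all genes. Sntb2, beta2-syntrophin, an adaptor that docks signalling proteins on dystrophin and utrophin, gave 429.8, 422, 325 and 438 normalized reads across the wild-type libraries and 642, 899, 833 and 1056 across the mfn2-/- ones. The groups were well apart, with a mean 2.12 times higher in mfn2-/- ASCs (404 ± 52.9 against 857 ± 171, SD, n = 4 each, log2 change 1.07, SE 0.21, limma adjusted p = 0.0066, edgeR 0.00397). Of 22 alternative settings, the only one to lose the call was limma without the intensity trend (adjusted p = 0.0643). Sntb1, its close relative beta1-syntrophin, named after its values were seen, gave 0, 21.8, 16.3 and 19.2 against 133, 82.2, 70.7 and 73.3 normalized reads. The groups of Sntb1 did not overlap, but limma did not call it (log2 change 3.22, adjusted p = 0.0740, DESeq2 0.00457). Without wild-type replicate 1, which had 0 reads, the log2 change of Sntb1 was 2.14 (limma adjusted p = 0.0603).

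Drp2, dystrophin-related protein 2, gave 1733, 1828, 924 and 927 normalized reads across the wild-type libraries and 2277, 2275, 2087 and 1325 across the mfn2-/- ones. Wild-type replicates 3 and 4, high for Dag1, were the lowest for Drp2. Its log2 change was 0.60 (SE 0.27, limma adjusted p = 0.189), with 1.30 among libraries with Y-linked reads and -0.10 among those without, and the difference of 1.40 (SE 0.29) passed the limma interaction test (adjusted p = 0.0448). Leaving out both of the shallowest libraries brought the overall change past the threshold (0.93, limma adjusted p = 0.0446). Both of those libraries were without Y-linked reads, the kind in which Drp2 changed by -0.10. Sspn, sarcospan, a small membrane protein beside the sarcoglycans, did not pass (195 ± 152 against 116 ± 55.3, SD, n = 4 each, log2 change -0.51, limma adjusted p = 0.663).

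The sugar chains by which dystroglycan binds laminin are built by a set of glycosyltransferases and their suppliers. Of these, 0 of 14 tested passed limma, 0 passed edgeR and 1 passed DESeq2, and 2 had an unadjusted p under 0.05, with a median log2 change of -0.29. Over all genes, 10.4% passed limma, 9.85% edgeR and 14.9% DESeq2, and 24.8% had an unadjusted limma p under 0.05. Those with the most normalized reads, not scaled to length, were Dpm1, a subunit of the dolichol-phosphate mannose synthase (0.30, limma adjusted p = 0.783), Tmem5, the xylosyltransferase also called Rxylt1 (-0.38, 0.699), and Pomgnt1, an N-acetylglucosamine transferase (0.03, 0.984). Gmppb, which makes GDP-mannose and was named after its values were seen, gave 111, 137, 57.2 and 81.2 normalized reads across the wild-type libraries and 18.0, 23.7, 19.2 and 0 across the mfn2-/- ones. Its groups did not overlap, yet its limma adjusted p was 0.0738 (log2 change -3.23, SE 1.07, and -2.13 with 0.0281 without mfn2-/- replicate 4) and the DESeq2 one 0.00576.

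Ligands of dystroglycan were the list with most calls, 6 of 9 tested, all lower in mfn2-/- ASCs, with a median log2 change of -1.87. Over all genes, 6.36% were called lower. Hspg2, perlecan, gave 13820.5, 13554, 14084 and 13634 normalized reads across the wild-type libraries and 3516, 3072, 4142 and 4475 across the mfn2-/- ones. Its wild-type mean was 3.62 times the mfn2-/- mean (log2 change -1.87, SE 0.19, limma adjusted p = 3.15e-05). Lama2, the laminin chain of the muscle basement membrane, gave 7748, 7223, 7467 and 7460.4 normalized reads across the wild-type libraries and 3004, 3373, 2567 and 1290.1 across the mfn2-/- ones. For Lama2 the wild-type mean was 2.92 times higher (log2 change -1.63, SE 0.26, limma adjusted p = 0.00148). Lama4, a laminin chain of vessel and muscle basement membranes, was 9.95 times higher in wild-type (1191 ± 154 against 119.7 ± 43.2, SD, n = 4 each, limma adjusted p = 4.96e-06), and Bgn, the proteoglycan biglycan, 7.40 times (7714 ± 2717 against 1042 ± 316, limma adjusted p = 2.56e-05).

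Nrxn2, neurexin 2, gave 192 ± 50.6 normalized reads across the wild-type libraries and 2.27 ± 1.22 across the mfn2-/- ones (SD, n = 4 each, log2 change -5.94, limma adjusted p = 6.95e-04), with 1 to 5 reads in each mfn2-/- library. Egflam, pikachurin, was the other lower ligand (144 ± 13.1 against 8.22 ± 9.67, SD, n = 4 each, limma adjusted p = 0.0124) and was named after its values were seen, as were Lama5 (0.35), Agrn (-0.62) and Slit2 (-0.69), which did not pass. Lama1 was below the filter, with 0 reads in every mfn2-/- library. The markers most often lower beside these ligands were those of fibroadipogenic cells, 15 of 17 lower, and tenocytes, 10 of 10 lower. Mural cells had 2 of 8 markers lower and 1 higher, and glia had 1 of 6 lower. The part of these cells in the ligand result was not tested.

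Among partners of dysferlin in membrane repair, 1 of 22 tested was higher, 2 were lower and 19 did not pass, with a median log2 change of -0.08. The share called was 13.6%, near the 10.4% of all genes. Those with the most normalized reads did not pass, namely the scaffold Ahnak (-0.16, limma adjusted p = 0.710), the caveolar coat gene Ptrf, also called Cavin1 (-0.17, 0.577), and the calpain Capn2 (0.21, 0.719). Under upper-quartile scaling, where the median of all genes shifted by 0.20, Ahnak was at 0.042 and Ptrf at 0.031. Under quantile normalization (a shift of 0.29) Ahnak was at 0.17, and Ptrf kept its sign. Both signs thus depend on the scaling, and no direction is given for either gene. S100a10, the annexin A2 partner, gave 537, 624, 458 and 706 normalized reads across the wild-type libraries and 1610.2, 1012, 933 and 1332 across the mfn2-/- ones, with no overlap and a mean 2.10 times higher (log2 change 1.05, SE 0.22, limma adjusted p = 0.00956, and 0.0873 without the intensity trend). Ehd2, a caveolar ATPase (671 ± 199.7 against 296 ± 127, SD, n = 4 each, log2 change -1.24, limma adjusted p = 0.0417, edgeR 0.0831), and Syt7, a calcium sensor of lysosome exocytosis (108 ± 55.8 against 14.0 ± 12.3, log2 change -3.38, limma adjusted p = 0.0474, edgeR 0.0531), passed narrowly. Of 22 alternative settings, the call was made in 9 for Ehd2 and in 8 for Syt7. With 1 library left out, limma kept the Ehd2 call only without wild-type replicate 2 or mfn2-/- replicate 1 (adjusted p of 0.0667 to 0.122 in the other 6 fits) and the Syt7 call only without mfn2-/- replicate 4 (0.0553 to 0.120 in the other 7).

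Genes named after their values were seen in this list were Cav3, Capn1, Anxa5 and Myof. Cav3, the muscle caveolin that binds dysferlin, gave 11.4, 0, 4.90 and 6.41 normalized reads across the wild-type libraries and 13.3, 42.7, 109 and 183 across the mfn2-/- ones (log2 change 3.63, limma adjusted p = 0.0710, edgeR 0.0371). The groups of Cav3 did not overlap, but the lowest mfn2-/- library was close to the highest wild-type one. The groups of Capn1 and Anxa5 did not overlap either, and both had negative log2 changes. Limma did not call Capn1 (-3.43, adjusted p = 0.0611, DESeq2 0.0044) or Anxa5 (-0.79, adjusted p = 0.0549, DESeq2 0.0374). Myof, myoferlin, the ferlin most like dysferlin, gave 398, 404, 386 and 415 normalized reads across the wild-type libraries and 231, 222, 658 and 1032 across the mfn2-/- ones. As for Utrn but in the opposite sense, mfn2-/- libraries with Y-linked reads were outside the wild-type range on one side (below) and those without on the other (above), and the limma interaction was -1.86 (SE 0.38, adjusted p = 0.0465).

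Among costamere and polarity partners, which anchor the complex to the contractile apparatus and to the cell cortex, 1 of 19 tested was higher, 1 was lower and 17 did not pass, with a median log2 change of -0.24. The share called was 10.5%, near the 10.4% of all genes. Des, the muscle intermediate filament desmin, gave 3104, 2722, 1376 and 1423 normalized reads across the wild-type libraries and 5837, 5275, 9259 and 11504 across the mfn2-/- ones. Its mean was 3.70 times higher in mfn2-/- ASCs (log2 change 1.91, SE 0.32, limma adjusted p = 0.00188), with 1.99 and 1.83 among libraries with and without Y-linked reads. Itgb1, the beta1 integrin, the other main laminin receptor, was 1.59 times higher in wild-type (3390.0 ± 320.2 against 2130.0 ± 304, SD, n = 4 each, log2 change -0.68, SE 0.17, limma adjusted p = 0.0256, edgeR 0.0690). The Itgb1 call was lost when wild-type replicate 3 or 4 or mfn2-/- replicate 1 or 2 was left out (limma adjusted p of 0.0708 to 0.0807), under upper-quartile scaling (-0.47, 0.0969) and without the intensity trend (0.159).

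Flnc, filamin C, which binds sarcoglycans, gave 8026, 7649, 3387 and 2974 normalized reads across the wild-type libraries and 5957, 5451, 6762 and 7062 across the mfn2-/- ones. Wild-type replicates 3 and 4 were again apart from the rest, here at the low end. The overall change of Flnc did not pass (0.33, limma adjusted p = 0.546), whereas the difference between changes with Y-linked reads (0.84) and without (-0.18) was 1.03 (SE 0.17, limma interaction adjusted p = 0.0149). Plec, plectin, did not pass (0.21, limma adjusted p = 0.613).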

How the data were processed

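Total RNA of the sorted ASCs went into strand-marking libraries built for small inputs. Per the submitters' processing notes, Trim Galore, HISAT2, featureCounts, DESeq2 and the mm9 build were used, while versions, annotation and strand setting are not given in the sources used here. The authors deposited a signal per gene symbol, read counts divided by 1 size factor per library. All values (100%, tolerance 0.01) were whole multiples of 1 step per library, so whole reads were recovered. Precision is lowest for the shallowest libraries, wild-type replicate 1 and mfn2-/- replicate 4, and a gene with 3 reads or fewer was taken as at the floor. Limits from a count of 0 cover counting error only, since the libraries are not stated to carry molecular identifiers. Every column matched 1 sample by its title (0 left without one).

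Genes with a mean of at least 10 (11754) were tested with limma 3.58.1 (R 4.3.3) on log2(value + 1), intensity trend, no covariate, two-sided, Benjamini-Hochberg 0.05. Such changes can understate or overstate those of weak genes. Sgce, with 1 library at 0, changed by -2.78 with limma and -1.54 with edgeR, whereas Nrxn2 changed by -5.94 and -6.21. Differences between kinds of library were tested as an interaction in the same fit, and single genes also by two-sided exact permutation tests. The alternatives were edgeR 4.0.16 and DESeq2 1.42.0 on recovered reads, pseudocounts of 0.1 and 10, no filter or a mean of at least 50, equal totals, upper-quartile or quantile scaling, the replicate number as a block, a Y-linked term, library weights, no trend, leaving out each library and, chosen after seeing the data, both shallowest libraries left out. Scripts were tested on simulated data (Python 3.11.15).

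The members and lists were chosen with earlier results of these data known. All members were named, and from each of the 5 lists the 3 genes with the most normalized reads (not scaled to length) and those called by limma (up to 5, lowest adjusted p first). Of the 89 listed genes 83 were in the table, some under older symbols such as Tmem5 and Ptrf. Sgcz, Sntg1, Pomgnt2, Pomk, Fer1l5 and Krt8 were not analysed here. Coordinates and lengths are from GENCODE M21 (GRCm38), not the mm9 build of the files. Promoter windows are from RefSeq (GRCm38.p6), where 7 of the 9 members matched, with 10 windows.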

Additional observations from a re-analysis of the deposited data

Results flagged for a closer look

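Dixon's criterion was applied to 72 groups of 4 libraries, each 1 of 36 genes within 1 genotype. The genes were the 9 members, Mfn2, 21 list genes named by rule and 5 named after their values were seen. Those 5 were Sntb1, Gmppb, Egflam, Cav3 and Myof, while Lama5, Agrn, Slit2, Capn1 and Anxa5 were not screened. In 8 of the 72 groups, 1 library stood apart from the other 3, where chance gives about 1 in 20 (3.6 here). In mfn2-/- replicate 4, the shallowest of its group, Dag1 was at 3583 normalized reads (others 2641 to 2750.1), Sgca at 60.5 (22.7 to 26.9), Dysf at 324 (88.5 to 127), Pomgnt1 at 189 (56.0 to 73.5) and Capn2 at 2897 (1017 to 1047). Elsewhere, Sgcd was at 13.3 in mfn2-/- replicate 1 (others 0), Sgce at 97.8 in wild-type replicate 4 (129.6 to 135) and Sntb2 at 325 in wild-type replicate 3 (422 to 438).

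The genotype change differed between libraries with and without Y-linked reads for Dag1, Drp2 and Flnc, and for Myof, which was named after its values were seen, by limma's interaction test, which 1.47% of all genes passed. The differences of log2 changes were -1.22 for Dag1 (adjusted p = 0.0190), 1.40 for Drp2 (adjusted p = 0.0448), 1.03 for Flnc (adjusted p = 0.0149) and -1.86 for Myof (adjusted p = 0.0465). The change of Myof was -0.82 with and 1.04 without Y-linked reads. The interaction was refitted with a library left out for Dag1 alone, and its call was lost in 6 of those 8 fits. Whether sex or another difference between the pairs of libraries goes with this cannot be told apart.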

How the results depend on the processing

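Of 195 alternative values of the members, 180 kept their direction and side of the threshold, 11 reversed and 4 gained a call. Settings that changed only the filter, the replicate block, the Y-linked term or the trend left log2 changes as they were and could not reverse them. Members called were 0 with limma, 0 when any library was left out, 1 with DESeq2, 2 with library weights and 1 without both shallowest libraries. In that last setting 1567 of the 11754 genes tested were called. All genes called (1217, of which 469 higher and 748 lower) were 3037 (1398 and 1639) with library weights and 633 (113 higher) without the trend, 844 were higher under upper-quartile scaling, and leaving out a library gave 670 (without wild-type replicate 3) to 1307 (235 to 470 higher, 435 to 837 lower). The listed pathway genes called (12) were 7 without the trend, 26 with library weights and 9 to 13 with a library left out. Reversed log2 changes were, under quantile normalization, Utrn -0.083 and Ahnak 0.17, under upper-quartile scaling Ahnak 0.042 and Ptrf 0.031, and with library weights Dtna -0.52, Dysf -0.030, Capn2 -0.084, Plec -0.091 and Myof -0.56. Without both shallowest libraries they were Dtna -1.55, Dpm1 -0.083, Pomgnt1 -0.10, Capn2 -0.18 and Myof -0.31. With 1 library left out, Utrn ran from -0.089 to 0.18, Dtna from -1.11 to 1.45, Dpm1 from -0.056 to 0.59, Pomgnt1 from -0.37 to 0.30, Tmem5 from -0.69 to 0.011, Capn2 from -0.17 to 0.34 and Myof from -0.31 to 0.43. The cause was not tested. Same-numbered libraries did not deviate together (correlations -0.11 to 0.04), but 4 libraries per group are too few to exclude that the numbers pair them. A replicate block called 1043 genes, 0 members and 11 pathway genes. Under a mean of at least 50, Sgca, Sgcd and Dtna could not be fitted. Depth limits these 3 most, with 0 to 99 reads per library.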
